A study of Mus musculus with 23 samples.

Results

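The 6 genes described here were the 4 mouse metallothioneins, Mt1, Mt2, Mt3 and Mt4, and the zinc transporters Slc30a1 (ZnT1) and Slc39a14 (ZIP14). They were chosen by gene symbol, from 19938 genes with a usable array row, with earlier results of these arrays known, among them a lower Mt4 level in mutant ears a day after wounding. Each symbol had exactly 1 row, so the rule of taking the row with the highest mean over the arrays made no selection. All arrays held ear pinna tissue of female mice, 4 weeks old, that were either Rhbdf2+/+ on the C57BL/6J strain (12 arrays, called wild type below) or Rhbdf2cub/cub of the strain B6.Cg-Rhbdf2cub/J (11 arrays, called cub below). Rhbdf2 encodes iRhom2, an inactive rhomboid that escorts the sheddase ADAM17, and cub is a mutation of it. Control ears were taken at 0 h, and the other ears 15 min, 2 h or 24 h after a hole 2 mm wide was punched, as the 1 mm rim of tissue around it cut with a 3 mm biopsy punch. Every group had 3 arrays of separate mice except cub at 15 min, which had 2. The labels mark the 0 h ears as controls with no separate account of how their piece of tissue was cut, so piece and wound cannot be told apart in comparisons with 0 h. All comparisons of one genotype with its 0 h ears share those 3 arrays.

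Metallothioneins are small proteins whose many cysteines bind zinc and copper, hold them in reserve and take up reactive oxygen species. Mt1 and Mt2 are made in most tissues and are induced when free zinc activates the transcription factor MTF1 at metal response elements, and also by glucocorticoids, interleukin 6 signalling and oxidants. Mt3 is known best from brain and Mt4 from the differentiating layers of stratified squamous epithelium. Zinc leaves the cytosol through SLC30 transporters, of which Slc30a1 exports it across the plasma membrane, and enters it through SLC39 transporters, of which Slc39a14 also carries iron and manganese and is an acute phase gene of the interleukin 6 response in liver.

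The sequence before the annotated start site is shown for 4 genes picked after their results were seen. Mt1 and Mt2 rose after wounding, Mt4 fell and Slc30a1, a textbook MTF1 target, passed no test. The sequences are RefSeq's (build GRCm38.p6), 250 bases ending just before the start site, each on the + strand and written 5′ to 3′. Capitals mark the metal response element core, searched as TGCACNC and TGCGCNC on both strands, so that a match on the other strand reads reversed and complemented.
Mt1, chr8:94178839-94179088: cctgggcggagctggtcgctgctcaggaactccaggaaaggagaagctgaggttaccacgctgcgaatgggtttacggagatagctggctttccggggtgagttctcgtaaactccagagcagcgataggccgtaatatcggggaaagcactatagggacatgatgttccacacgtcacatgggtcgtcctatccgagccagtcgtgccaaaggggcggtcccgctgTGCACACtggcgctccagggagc
Mt2, chr8:94172368-94172617: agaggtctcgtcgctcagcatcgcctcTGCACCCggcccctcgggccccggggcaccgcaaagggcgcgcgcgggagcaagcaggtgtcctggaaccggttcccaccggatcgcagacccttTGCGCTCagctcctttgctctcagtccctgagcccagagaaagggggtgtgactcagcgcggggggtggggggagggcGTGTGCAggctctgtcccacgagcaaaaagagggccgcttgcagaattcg
Mt4, chr8:94136954-94137203: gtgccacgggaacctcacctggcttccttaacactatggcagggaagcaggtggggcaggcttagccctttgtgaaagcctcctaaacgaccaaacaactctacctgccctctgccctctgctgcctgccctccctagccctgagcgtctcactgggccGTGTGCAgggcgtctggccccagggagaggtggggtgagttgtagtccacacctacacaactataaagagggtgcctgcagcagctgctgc
Slc30a1, chr1:191906531-191906780: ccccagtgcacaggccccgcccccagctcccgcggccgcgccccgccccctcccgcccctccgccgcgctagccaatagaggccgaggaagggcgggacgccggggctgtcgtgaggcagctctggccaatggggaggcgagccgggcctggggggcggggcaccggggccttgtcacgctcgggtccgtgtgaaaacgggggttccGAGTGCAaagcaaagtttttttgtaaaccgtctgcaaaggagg
Counting also the 50 bases after the start site, the window of 300 bases held 3 core matches for Mt1, 4 for Mt2, 1 for Mt3, 1 for Mt4 and 2 for Slc30a1. Those of Mt1 began at positions -23, 3 and 21, so only 1 came before its annotated start site. The counts depend on which start site is annotated, and bases beyond the window were not searched. Of 32851 such promoter windows in the table, 25.7% held at least 1 match, 1.97% held 3 or more and 0.517% held 4 or more. Mt2 also had the antioxidant response element core TGACNNNGC, at position -79 from the start site, overlapping an AP-1 match (TGANTCA), and Slc30a1 had 1 antioxidant core at position -82. The antioxidant core was in 12.4% and the AP-1 letters in 7.81% of all windows. These are matches of letters only, and whether any of them acted in these ears was not tested. The 4 metallothionein genes neighbour one another on chromosome 8 in the order Mt4, Mt3, Mt2, Mt1, all on the + strand. Mt1 and Mt2 moved together over the arrays (Pearson r of 0.984), while Mt3 and Mt4 did not follow them.

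**Figure D1:**
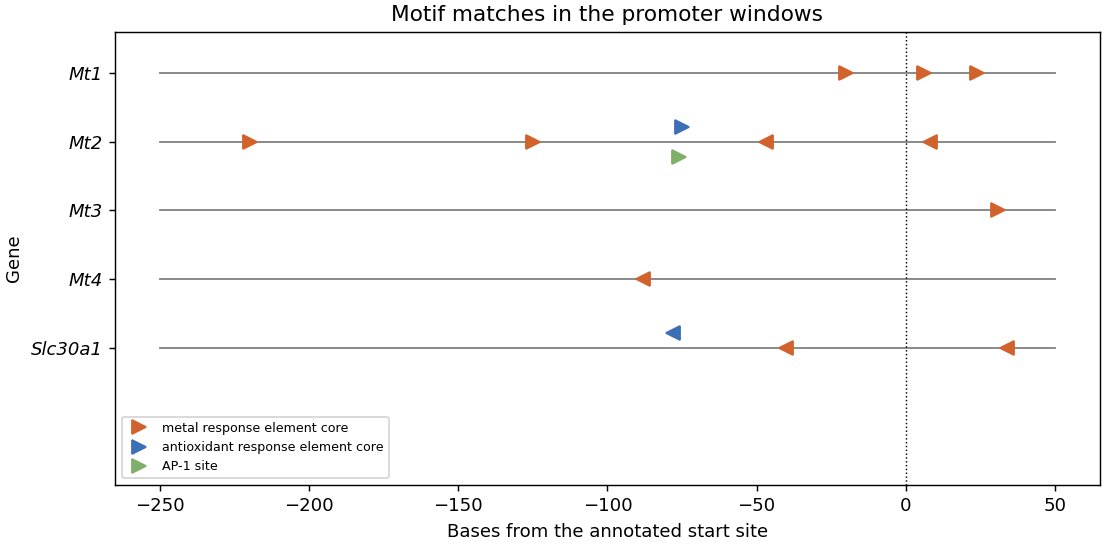
Matches of the metal response element core, the antioxidant response element core and the AP-1 site around the annotated start site of 5 genes; the x axis is the distance in bases from the start site (dotted line), and a triangle points right on the + strand and left on the - strand. Mt2 has 4 metal response element matches and Mt1 has 3, while Mt3 and Mt4 have 1 each.

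Values are log2 RMA signals, so a difference of 1 is a doubling, and each probe row has its own response, so that levels are compared between groups of one gene and not between genes. A difference is called where limma's p, adjusted by the Benjamini-Hochberg method over all 19938 genes, was under 0.05, and errors on differences are standard errors. The genes were proposed with results known, and the p-values take no account of that. Markers of the tissues an ear holds were measured on these arrays, and their rows are listed without ranking one against another, on a scale that ran from 2.92 to 13.84. Means over all arrays ran from 9.69 (Casp14) to 13.16 (Krt10) for 10 suprabasal and cornified keratinocyte genes, from 9.15 (Dst) to 12.94 (Krt5) for 8 basal keratinocyte genes, from 8.84 (Actn3) to 12.15 (Acta1) for 9 skeletal muscle genes, and from 4.96 (Matn1) to 9.87 (Sox9) for 9 cartilage genes. Rhbdf2 itself, whose array row need not cover the altered part and so does not check the labels, was 0.41 ± 0.09 higher in cub at 0 h (adjusted p = 0.00883) and 0.49 lower at 24 h (cub minus wild type -0.49 ± 0.09, adjusted p = 0.00218). As these are pieces of whole tissue, fewer cells of a type and less RNA per cell cannot be told apart. The array medians lay between 6.37 and 6.46, and no array was left out.

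**Figure D2:**
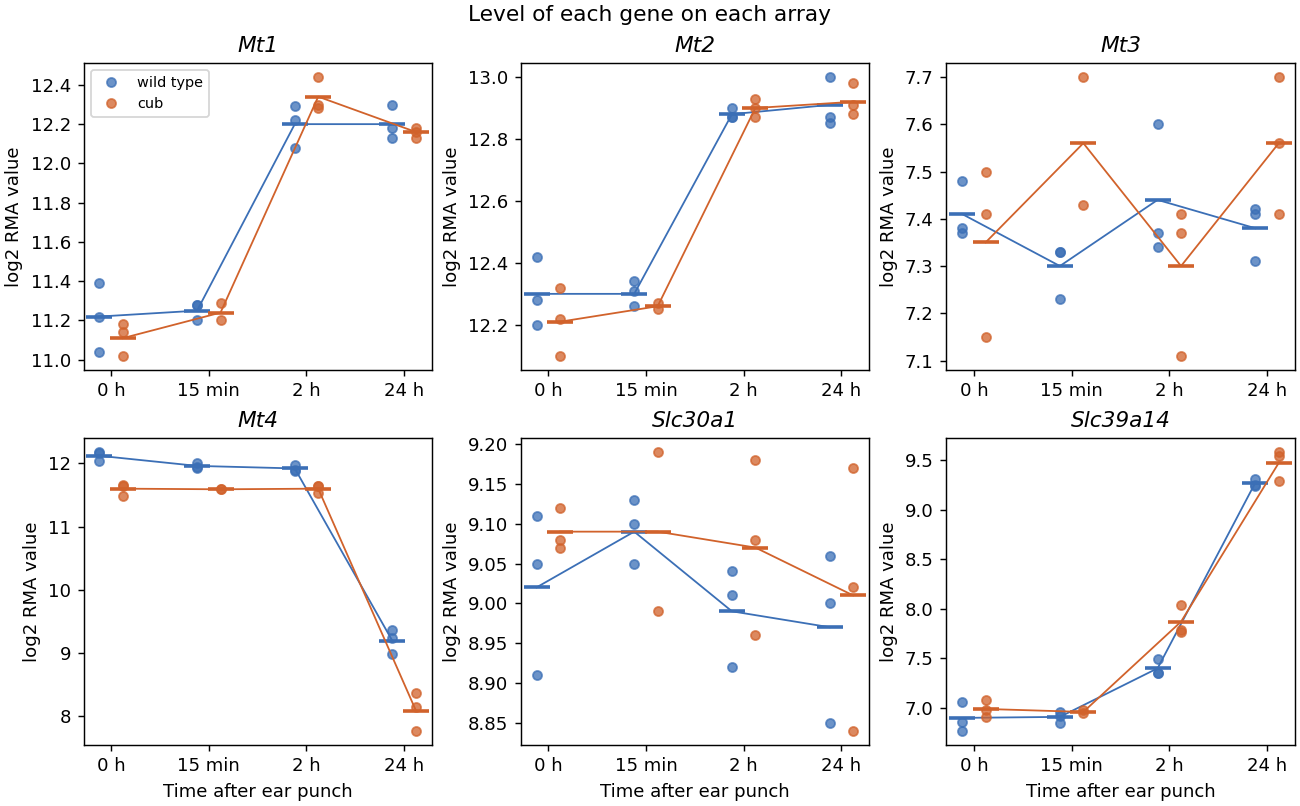
Log2 RMA level of each gene on each of the 23 arrays, by time after the ear punch; points are single arrays, short bars are group means and lines join them, and each panel has its own y axis. Mt1 and Mt2 step up between 15 min and 2 h, Slc39a14 climbs to 24 h, Mt4 drops at 24 h, and the Mt3 and Slc30a1 panels span under 1 log2 unit.

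Mt1 and Mt2, the widely made metallothioneins, were near their control level 15 min after the punch and had risen by 2 h in both genotypes, where they stayed at 24 h. In wild-type ears Mt1 read 11.04, 11.22 and 11.39 at 0 h and 11.28, 11.28 and 11.2 at 15 min, then 12.29, 12.22 and 12.08 at 2 h and 12.3, 12.18 and 12.13 at 24 h. No array at 2 h or 24 h overlapped the earlier ones, and the later 2 groups overlapped each other. The rise over 0 h was 0.98 ± 0.08 at 2 h (1.97-fold, adjusted p = 1.5e-08) and 0.99 ± 0.08 at 24 h (1.98-fold, adjusted p = 9.36e-10). In cub ears Mt1 read 11.18, 11.14 and 11.02 at 0 h, 11.2 and 11.29 at 15 min, 12.44, 12.28 and 12.3 at 2 h, and 12.13, 12.18 and 12.16 at 24 h. Its rise was 1.23 ± 0.08 at 2 h (2.34-fold, adjusted p = 4.86e-10) and 1.04 ± 0.08 at 24 h (2.06-fold, adjusted p = 2.53e-10). All cub arrays at 2 h stood above all those at 24 h, and the difference of -0.18 ± 0.08 missed the threshold (adjusted p = 0.0614); it passed with a filter on low levels and with trend and robust moderation (0.0364 to 0.243 over the alternatives).

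Mt2 followed the same course with smaller steps. It read 12.2, 12.28 and 12.42 in wild-type control ears and 12.34, 12.26 and 12.31 at 15 min, against 12.87, 12.9 and 12.87 at 2 h and 13, 12.85 and 12.87 at 24 h. In cub it read 12.32, 12.22 and 12.1 at 0 h, 12.25 and 12.27 at 15 min, 12.87, 12.9 and 12.93 at 2 h, and 12.91, 12.88 and 12.98 at 24 h. The early and late arrays did not overlap in either genotype. The rise at 2 h was 0.58 ± 0.06 in wild type (adjusted p = 1.36e-06) and 0.69 ± 0.06 in cub (adjusted p = 9.83e-08), and at 24 h it was 0.61 ± 0.06 (adjusted p = 4.89e-08) and 0.71 ± 0.06 (adjusted p = 3.3e-09).

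Slc39a14, the importer of zinc and iron, rose by 2 h and rose again by 24 h. It read 6.77, 7.06 and 6.86 in wild-type control ears, 6.96, 6.85 and 6.92 at 15 min, 7.35, 7.35 and 7.49 at 2 h, and 9.25, 9.24 and 9.31 at 24 h. In cub it read 6.91, 7.08 and 6.98 at 0 h, 6.95 and 6.98 at 15 min, 8.04, 7.79 and 7.77 at 2 h, and 9.54, 9.29 and 9.58 at 24 h. The arrays at 0 h and 15 min overlapped, those at 2 h lay above them and those at 24 h lay above all others. The rise at 2 h was 0.50 ± 0.08 in wild type (1.41-fold, adjusted p = 0.000494) and 0.88 ± 0.08 in cub (1.84-fold, adjusted p = 2.59e-07). By 24 h it was 2.37 ± 0.08 (5.17-fold, adjusted p = 5.22e-15) in wild type and 2.48 ± 0.08 (5.58-fold, adjusted p = 1.54e-15) in cub. The step from 2 h to 24 h alone was 1.87 ± 0.08 in wild type (adjusted p = 4.01e-13) and 1.60 ± 0.08 in cub (adjusted p = 3.13e-12), whereas Mt1 and Mt2 passed no test over that interval. Markers of neutrophils moved over the same times: the mean level of 12 such genes was 5.48 at 0 h, 6.13 at 2 h and 8.62 at 24 h in wild type and 5.44, 6.6 and 8.99 in cub. At 24 h, 9 of them were called higher in wild type and 11 in cub, where 42.8% and 46.0% of all genes were called. Other cells moved as well. Of 9 macrophage markers, 5 rose in wild type, and 4 rose and 1 fell in cub. Of 8 fibroblast markers, 1 rose and 5 fell in wild type, and 1 rose and 6 fell in cub. The part of any of these cells in the result was not tested.

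Mt4, the metallothionein of differentiating epithelium, went the other way, and late. In wild-type ears it read 12.03, 12.18 and 12.16 at 0 h, 12.01, 11.93 and 11.94 at 15 min, 11.88, 11.89 and 11.98 at 2 h, and 9.36, 9.23 and 8.99 at 24 h. In cub ears it read 11.66, 11.49 and 11.65 at 0 h, 11.59 and 11.6 at 15 min, 11.53, 11.64 and 11.64 at 2 h, and 8.14, 8.36 and 7.77 at 24 h. The 24 h arrays lay far under all the earlier ones in both genotypes. The change from 0 h to 24 h was -2.93 ± 0.11 in wild type, which left 0.131 of the control signal (adjusted p = 5.89e-15), and -3.51 ± 0.11 in cub, which left 0.0878 of it (adjusted p = 2.67e-16). At 15 min and 2 h the differences from 0 h were -0.16 ± 0.11 and -0.21 ± 0.11 in wild type and -0.01 ± 0.12 and 0.00 ± 0.11 in cub, none past the threshold. The mean level of 10 suprabasal and cornified keratinocyte markers was 11.82 at 0 h (arrays 11.78 to 11.89) and 11.51 at 24 h (11.48 to 11.54) in wild type, and 12.1 (12.06 to 12.16) and 11.63 (11.59 to 11.68) in cub. That of 8 basal keratinocyte markers was 11.38 and 11.2 in wild type and 11.33 and 11.04 in cub. Of the suprabasal list, 1 rose and 6 fell at 24 h in wild type and none rose and 9 fell in cub; of the basal list, 3 rose and 2 fell in wild type and 3 rose and 4 fell in cub, with medians of -0.04 and -0.14 and Krt15 at -1.75 and -2.53. Other tissues of the ear moved as well, with all 9 skeletal muscle markers lower at 24 h in both genotypes, and 6 of 7 adipocyte markers lower in wild type and 7 in cub. Beside these counts, 42.8% of all genes were called at 24 h in wild type and 46.0% in cub. The part of any of these lists in the fall of Mt4 was not tested.

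Mt3 and Slc30a1 passed no test against the control ear at any time in either genotype with all arrays. For Mt3 in cub at 24 h the difference of 0.20 ± 0.10 (adjusted p = 0.105) passed without the second cub array at 24 h (0.28, adjusted p = 0.0421) or without the third at 0 h (0.28, adjusted p = 0.0429). Mt3, the brain metallothionein, had group means between 7.3 and 7.56. In cub it was 7.11, 7.41 and 7.37 at 2 h and 7.7, 7.41 and 7.56 at 24 h, which overlap at 7.41. That difference, 0.26 ± 0.10, passed narrowly (adjusted p = 0.0394) and no longer did without the first cub array at 2 h, without the first or the third cub array at 24 h, in a fit of these 2 groups alone or without moderated variances (0.0164 to 0.235 over all alternatives). Slc30a1, the zinc exporter, had group means between 8.97 and 9.09, and single arrays between 8.84 and 9.19. Its change at 24 h was -0.05 in wild type, with a 95% interval from -0.22 to 0.11, and -0.08 in cub, with an interval from -0.25 to 0.09. A doubling lies outside both intervals.

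**Figure D3:**
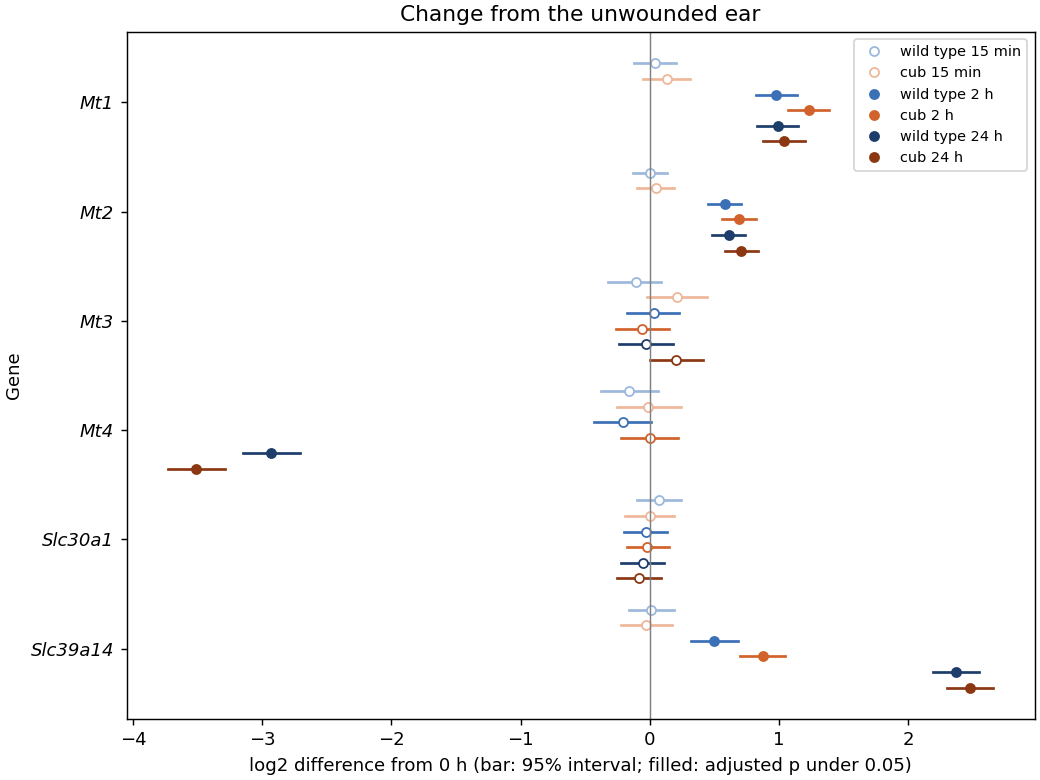
Difference in log2 level from the 0 h ears of the same genotype for each gene at 15 min, 2 h and 24 h; points are fitted differences, bars are 95% intervals, and filled points passed the adjusted p of 0.05. Mt1 and Mt2 are to the right of 0 at 2 h and 24 h, Slc39a14 moves further right at 24 h, and Mt4 is at -2.93 in wild type and -3.51 in cub at 24 h.

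Counted over the 6 genes, none was called at 15 min in wild type, where 0.0351% of all genes were, or in cub, where 0.0251% were. None of the 6 reached an unadjusted limma p under 0.05 there either. At 2 h, 3 rose and none fell in wild type (7.97% of all genes called) and likewise 3 rose and none fell in cub (11.9%). At 24 h, 3 rose and 1 fell in wild type (42.8%) and 3 rose and 1 fell in cub (46.0%), and with so many genes called a call by itself sets a gene little apart at that time. Between 2 h and 24 h, 1 rose and 1 fell in wild type (41.5%), and 2 rose and 1 fell in cub (42.2%).

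Both genotypes were sampled at every time, in separate mice. In the comparisons at single times, Mt4 passed the threshold as lower in cub at 0 h and 24 h, and Slc39a14 as higher at 2 h. In control ears Mt4 differed at 0 h by -0.52 ± 0.11 on the log2 scale, 0.696 of the wild-type signal (adjusted p = 0.00599), and the highest cub array, at 11.66, was below the lowest wild-type array, at 12.03. The difference missed the threshold at 15 min (-0.37 ± 0.12, adjusted p = 0.0811) and at 2 h (-0.31 ± 0.11, adjusted p = 0.102). At 2 h it passed with quantile normalization, in a fit of the 2 groups alone and with array weights (0.0302 to 0.338 over the alternatives). The Mt4 arrays of the genotypes did not overlap at either time, nor did those of Mt3 at 15 min. With 2 or 3 arrays a group this says little by itself, and its share over all genes was not counted. At 24 h the cub arrays, from 7.77 to 8.36, lay below the wild-type arrays, from 8.99 to 9.36, a difference of -1.1 ± 0.11; it was known when the genes were chosen and is given as a description. Averaged over 0 h, 15 min and 2 h, leaving out 24 h, Mt4 was lower in cub by -0.40 ± 0.06 (adjusted p = 0.000244), an average added after the data were seen. The 10 suprabasal and cornified keratinocyte markers had a mean at 0 h of 12.1 in cub against 11.82 in wild type. Of these, 4 were called higher and 1 lower in cub, where 5.25% of all genes were called. None of 8 basal markers was called at 0 h, and Krt15 among them stood at -0.29 ± 0.12 (adjusted p = 0.184). The part of these lists in the Mt4 difference was not tested.

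Slc39a14 was higher in cub at 2 h. The lowest cub array then, at 7.77, was above the highest wild-type array, at 7.49, and the difference was 0.47 ± 0.08 (1.39-fold, adjusted p = 0.00233). It was 0.09 ± 0.08 at 0 h (adjusted p = 0.653) and 0.05 ± 0.09 at 15 min (adjusted p = 0.749). At 24 h the groups overlapped and the difference of 0.20 ± 0.08 missed the threshold (adjusted p = 0.183, from 0.0421 to 0.54 over the alternatives), and passed it without the second cub array at 24 h (adjusted p = 0.0421). The neutrophil markers were also higher in cub at 2 h, with a mean of 6.6 (arrays 6.47 to 6.72) against 6.13 (5.95 to 6.31), and 5 of the 12 were called. So were those of other cells: 6 of 8 fibroblast markers (mean 11.2 against 10.77), 6 of 9 macrophage markers (8.94 against 8.36), 6 of 8 mast cell markers (8.1 against 7.5), 4 of 5 melanocyte markers (7.77 against 7.03) and 4 of 7 endothelial markers (8.64 against 8.33) were higher in cub at 2 h. Beside these counts, 4.41% of all genes were called between the genotypes at 2 h. The part of any of these cells in the result was not tested.

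Mt1, Mt2, Mt3 and Slc30a1 passed no test between the genotypes. For Mt1 the differences ran from -0.10 ± 0.08 at 0 h to 0.14 ± 0.08 at 2 h, and averaged over the times the difference had a 95% interval from -0.09 to 0.08. For Mt2 that interval ran from -0.09 to 0.04, and for Slc30a1 from -0.04 to 0.13. For Mt3 the largest difference was 0.27 ± 0.11 at 15 min, where cub had 2 arrays (adjusted p = 0.162). Counted over the 6 genes, 1 was lower in cub at 0 h (5.25% of all genes called), none was called at 15 min (3.45%), where Mt3 and Mt4, and 22.7% of all genes, had an unadjusted limma p under 0.05, 1 was higher at 2 h (4.41%), and 1 was lower at 24 h (5.68%). Averaged over the times, 1 was higher and 1 lower (18.3%); the lower one was Mt4, whose average holds the known 24 h difference, and nothing is read from these 24 h and averaged counts for it.

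**Figure D4:**
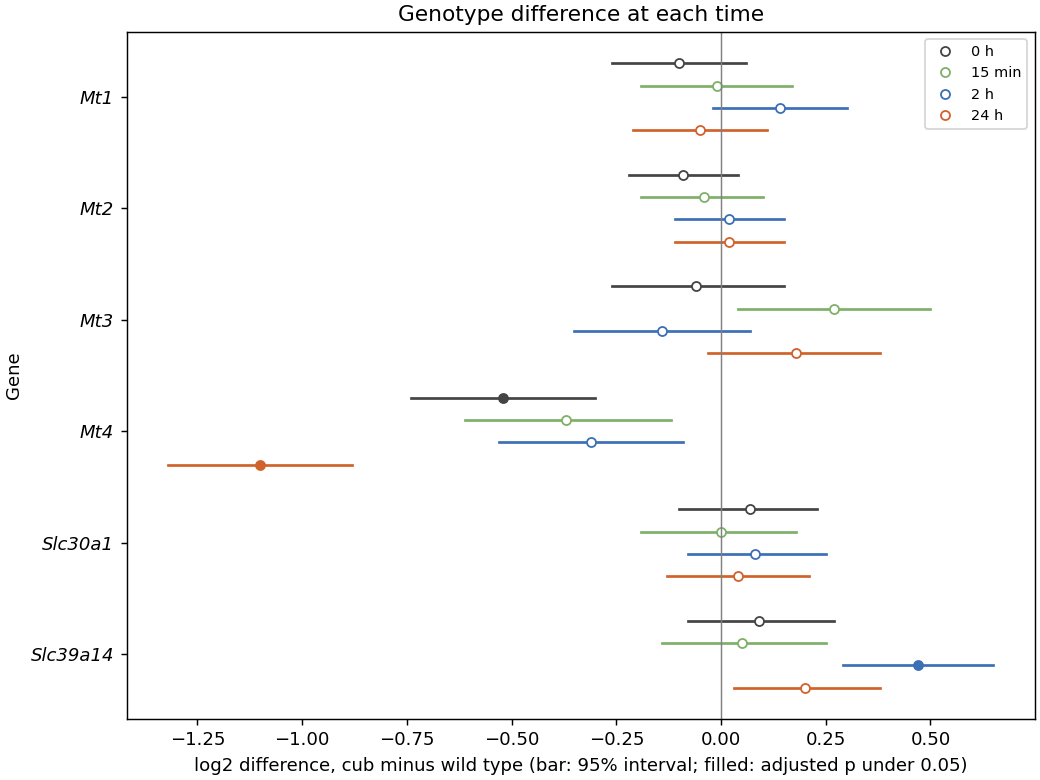
Difference in log2 level, cub minus wild type, for each gene at each of the 4 times; points are fitted differences, bars are 95% intervals, and filled points passed the adjusted p of 0.05. Mt4 lies left of 0 at every time, at -1.1 at 24 h, and Slc39a14 lies furthest right at 2 h, at 0.47.

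Whether wounding changed a gene differently in cub was tested as the difference between the 2 genotypes' changes from 0 h. No member passed at 15 min, at 2 h or at 24 h by limma, where 0%, 0.130% and 1.00% of all genes were called. For Mt4 at 24 h that difference was -0.58 ± 0.15, a description only, since it contains the genotype difference at 24 h known when the genes were chosen. At 2 h the rise of Slc39a14 was larger in cub by 0.38 ± 0.12 (adjusted p = 0.24) and that of Mt1 by 0.25 ± 0.11 (adjusted p = 0.438). At an unadjusted p under 0.05 there was 1 member at 15 min (Mt3), 2 at 2 h and 1 at 24 h (Mt4), beside 8.73%, 10.2% and 11.0% of all genes.

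The levels of Mt1, Mt2, Slc39a14 and Mt4 over the groups fell into a plain order. No such order is read for Mt3 and Slc30a1, whose group means lay between 7.3 and 7.56 and between 8.97 and 9.09. For Mt1 and Mt2 the 4 groups at 0 h and 15 min overlapped one another, except that for Mt1 the cub arrays at 0 h lay just under both 15 min groups, and all 4 lay below the 4 groups at 2 h and 24 h. For Slc39a14 the order rose from the 4 early groups through wild type at 2 h and cub at 2 h to the 24 h groups, whose arrays overlapped. For Mt4 it fell from the wild-type groups up to 2 h, through the cub groups up to 2 h, which overlapped one another between 11.49 and 11.66, to wild type and then cub at 24 h. Over the 23 arrays Mt1 and Mt2 had a Pearson r of 0.984, and 0.652 after each group's mean was taken away, and Mt4 and Slc39a14 had an r of -0.946, and -0.412 within groups. These are descriptions over arrays that share the time course.

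The genes most like each member over the 23 arrays were taken as the 3 with the highest Pearson r. Besides each other, Mt1 and Mt2 shared Atf4, a transcription factor of the stress response, at 0.981 and 0.979; next came the cytokine Il6 for Mt1 (0.975) and Klf10, an early gene of TGF-beta signalling, for Mt2 (0.976). Atf4 was 0.49 ± 0.05 higher at 2 h in wild type (adjusted p = 6.29e-07) and 0.63 ± 0.05 in cub (adjusted p = 1.12e-08). For Slc39a14 they were Timp1, a metalloproteinase inhibitor (0.993), Gja1, the gap junction protein connexin 43 (0.992), and Adam8, a membrane protease (0.991). Timp1, like Slc39a14, was higher in cub than in wild type at 2 h, by 0.74 ± 0.14 (adjusted p = 0.00362). For Mt4 they were the zinc finger gene Zfp652 (0.989), the glucose transporter Slc2a12 (0.988) and Krt15, a keratin of basal keratinocytes and hair follicle (0.988). Krt15 fell by 24 h, with a difference of -1.75 ± 0.12 in wild type (adjusted p = 1.67e-10) and -2.53 ± 0.12 in cub (adjusted p = 3.27e-13). The members without a wounding call had lower values, with Actrt3, Nr2e1 and Vstm2l for Mt3 (0.88, 0.874 and 0.87) and Usp28, Cdkal1 and Osbpl2 for Slc30a1 (0.852, 0.826 and 0.783).

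Counted without regard to direction, the other zinc transporters were called about as often as genes in general, so those totals set the family apart at neither time. Of 23 tested, none rose and 1 fell at 2 h in wild type, and 2 rose and 1 fell in cub, where 7.97% and 11.9% of all genes were called. The gene that fell was Slc39a10, a plasma membrane importer, at -0.27 ± 0.08 in wild type (adjusted p = 0.0424) and -0.26 ± 0.08 in cub (adjusted p = 0.0389). In cub Slc39a2, a zinc importer known from epidermal keratinocytes, rose by 0.58 ± 0.09 (adjusted p = 0.000101). At 24 h, 8 rose and 1 fell in wild type and 9 rose and 2 fell in cub, beside 42.8% and 46.0% of all genes called, with a median difference of 0.07 and 0.04 over the list against -0.02 and 0 over all genes. Of all genes, 4081 rose and 4462 fell in wild type, and 4208 rose and 4969 fell in cub. The called transporters thus leaned more to rises than all called genes did, and this lean was not tested. Slc39a1, a plasma membrane importer, rose by 0.64 ± 0.07 in wild type (adjusted p = 3.89e-07) and 0.56 ± 0.07 in cub (adjusted p = 1.65e-06). Slc30a7, which loads zinc into the Golgi, rose by 0.45 ± 0.05 (adjusted p = 1.3e-07) and 0.54 ± 0.05 (adjusted p = 7.03e-09). Slc30a9, known from mitochondria and named here as the gene that fell in both genotypes, stood at -0.36 ± 0.07 (adjusted p = 0.000161) and -0.27 ± 0.07 (adjusted p = 0.00228), and in cub Slc39a3 fell as well.

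Slc39a8 (ZIP8), the importer closest to ZIP14 in sequence, rose by 24 h in wild type, from a mean of 6.8 to 7.62 (0.82 ± 0.13, adjusted p = 3.28e-05). In cub its difference from 0 h was 0.12 ± 0.13 (adjusted p = 0.543), and its level at 0 h was already above wild type by 0.57 ± 0.13 (adjusted p = 0.0153). The test of the difference between those changes gave -0.70 ± 0.19 and missed the threshold (adjusted p = 0.0864). Between the genotypes, 1 of the 23 was higher and 1 lower in cub at 0 h (Slc39a8 and Slc39a11) and at 15 min (Slc39a8 and Slc30a5), 2 were higher at 2 h, Slc30a6 and Slc39a13, the second a carrier of the early secretory pathway (0.34 ± 0.07, adjusted p = 0.00469), and 1 was higher at 24 h, Tmem163 (0.38 ± 0.10, adjusted p = 0.0223). Of all genes, 5.25% were called at 0 h, 3.45% at 15 min, 4.41% at 2 h and 5.68% at 24 h. Such small counts set the list little apart.

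**Figure D5:**
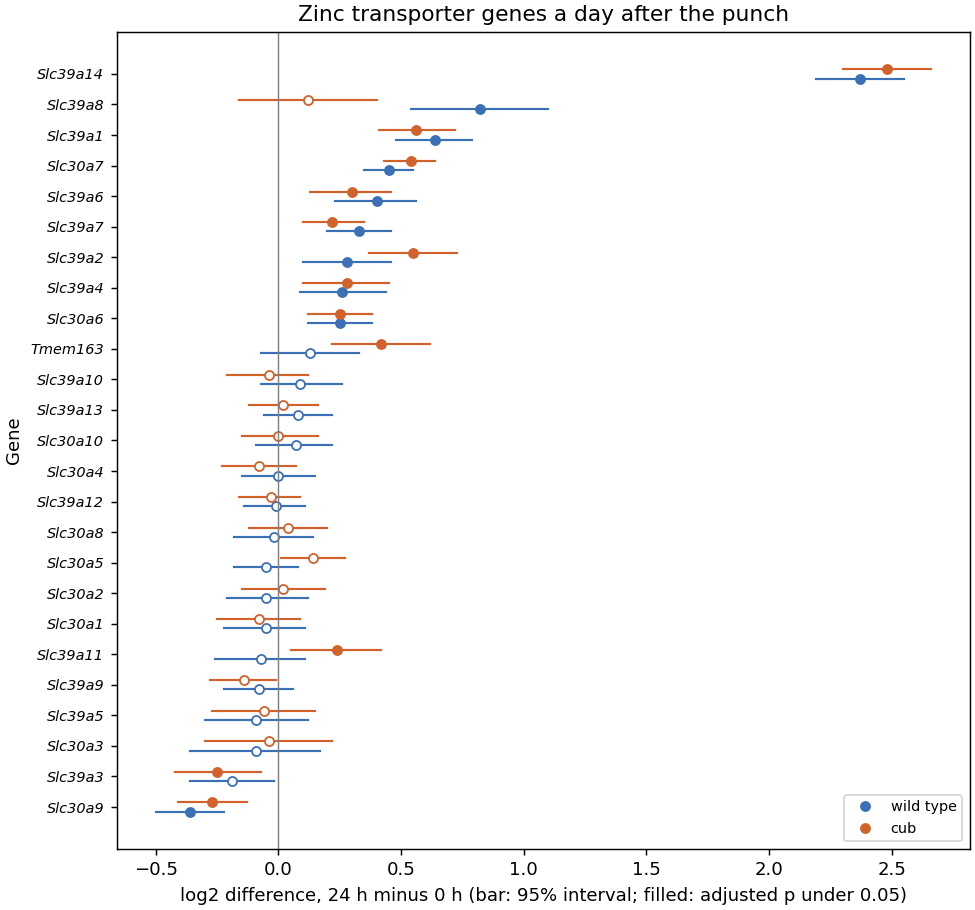
Difference in log2 level between 24 h and 0 h for 25 zinc transporter genes (Slc30a1, Slc39a14 and the 23 others), in wild-type and cub ears; points are fitted differences, bars are 95% intervals, and filled points passed the adjusted p of 0.05. Slc39a14 stands at 2.37 and 2.48, and in wild type the next gene is Slc39a8 at 0.82, while in cub it is Slc39a1 at 0.56 and Slc39a8 is at 0.12.

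Among 13 genes of metal-responsive regulation and copper handling, Mtf1, which encodes the zinc sensor of the metallothionein promoters, rose at 2 h by 0.24 ± 0.06 in wild type (adjusted p = 0.00924) and 0.31 ± 0.06 in cub (adjusted p = 0.000527). At 24 h it was still 0.33 ± 0.06 above 0 h in wild type (adjusted p = 3.91e-05) and 0.14 ± 0.06 in cub (adjusted p = 0.0386). In this list 2 rose and 1 fell at 2 h in wild type and 2 rose and none fell in cub (7.97% and 11.9% of all genes called). At 24 h, 5 rose and 5 fell in wild type and 5 rose and 4 fell in cub (42.8% and 46.0% of all genes called). Steap4, a metalloreductase of iron and copper, rose at 24 h by 0.74 ± 0.08 and 0.79 ± 0.08 (adjusted p = 9.77e-08 and 3.13e-08). Slc31a2, a copper transporter of inner membranes, fell, at -0.70 ± 0.07 and -0.73 ± 0.07 (adjusted p = 7.65e-08 and 2.83e-08).

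Of 11 iron-handling genes, 1 was lower at 2 h in wild type and none was called in cub (7.97% and 11.9% of all genes called). At 24 h, 3 rose and 2 fell in wild type and 4 rose and 4 fell in cub (42.8% and 46.0% of all genes called). The iron exporter ferroportin, Slc40a1, fell, at -1.28 ± 0.12 in wild type (adjusted p = 2.14e-08) and -1.44 ± 0.12 in cub (adjusted p = 2.76e-09). Heph, the ferroxidase hephaestin that works beside it, fell too, at -1.07 ± 0.10 and -1.62 ± 0.10 (adjusted p = 2.35e-08 and 2.92e-11). The transferrin receptor Tfrc, which takes iron up, rose by 0.45 ± 0.08 and 0.81 ± 0.08 (adjusted p = 0.000102 and 3.13e-08).

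Genes of the 3 other pathways known to induce metallothioneins were counted in the same way. The part of any of these pathways in the metallothionein results was not tested. Of 16 interleukin 6 and STAT3 genes, 11 rose at 2 h in wild type and 10 in cub, with none lower, and 14 rose and 1 fell at 24 h in both, beside 7.97% and 11.9% of all genes called at 2 h and 42.8% and 46.0% at 24 h. Il6 itself was 4.51 ± 0.22 higher at 2 h in wild type (adjusted p = 8.24e-12) and 4.50 ± 0.22 in cub (adjusted p = 1.16e-11), and Socs3, the feedback inhibitor of the pathway, 2.64 ± 0.14 and 2.82 ± 0.14 higher (adjusted p = 2.9e-11 and 1.25e-11). The list's median difference was 0.80 in wild type and 0.59 in cub at 2 h, and 1.70 and 1.68 at 24 h, against medians over all genes between -0.02 and 0.

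The glucocorticoid list had 12 genes tested and included Nr3c1, the gene of the receptor itself, so not every entry is a gene the hormone induces. Of the 12, 8 rose and 1 fell at 2 h in wild type and 7 rose and none fell in cub (7.97% and 11.9% of all genes called). Fkbp5, a chaperone of the steroid receptor, was 1.49 ± 0.16 and 1.53 ± 0.16 higher then (adjusted p = 2.07e-06 and 1.08e-06). By 24 h, 3 were higher and 7 lower than at 0 h in both genotypes (42.8% and 46.0% of all genes called). Tsc22d3, the leucine zipper gene GILZ, was then lower, at -1.85 ± 0.10 and -2.05 ± 0.10 (adjusted p = 4.48e-12 and 5.19e-13), while Lcn2, the siderophore-binding lipocalin of neutrophils and epithelium, was 4.23 ± 0.10 and 4.2 ± 0.10 higher (adjusted p = 1.12e-17 and 9.36e-18).

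Of 19 targets of the oxidant-responsive factor NRF2, 5 rose at 2 h in wild type and 8 in cub, with none lower, and 11 rose and 3 fell at 24 h in wild type and 13 rose and 3 fell in cub. Of all genes, 7.97% and 11.9% were called at 2 h and 42.8% and 46.0% at 24 h. Hmox1, heme oxygenase, was 0.80 ± 0.15 higher at 2 h in wild type (adjusted p = 0.00126) and 1.1 ± 0.15 in cub (adjusted p = 2.22e-05). At 24 h Slc7a11, the cystine carrier that feeds glutathione synthesis, was 3.87 ± 0.15 and 4.93 ± 0.15 higher (adjusted p = 1.93e-14 and 2.89e-16). In control ears 2 of these genes were higher and 4 lower in cub, Slc7a11 among the lower (-0.72 ± 0.15, adjusted p = 0.00669), and at 2 h 2 were higher, with Hmox1 at 0.92 ± 0.15 (adjusted p = 0.001). Between the genotypes, 5.25% of all genes were called at 0 h and 4.41% at 2 h. Mt1 and Mt2 passed no genotype test at those times. The part of these NRF2 targets, or of NRF2 itself, in the levels of Mt1 and Mt2 was not tested.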

How the data were processed

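Total RNA of 23 ear samples was hybridised to Affymetrix Mouse Gene 1.0 ST arrays, per the series' design text and labels. The authors deposited 1 table of 35556 probe rows with log2 values, for which the submitters' processing notes name RMA and version 1.1 of Affymetrix Expression Console; the genome build and further settings are not given in the sources used here. RMA applies background correction and quantile normalization over arrays, so a shift common to all genes cannot be seen. Rows were named from the platform annotation: 21789 had 1 symbol, 1621 several and 12146 none, and only the first were used, with the highest-mean row for the 999 genes with several rows, which left 19938 genes.

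Differences were tested with limma 3.58.1 (R 4.3.3) in 1 linear model with a mean for each of the 8 groups, 15 residual degrees of freedom and moderated variances, for 16 comparisons, each adjusted by the Benjamini-Hochberg method at 0.05. The study's text names another R package, R/maanova, for its own tests. The script was tested on simulated data. The labels call the arrays biological replicates; the number of arrays limits the precision. Other genes are named by fixed rules: for each member the 3 genes of highest correlation, and for each list and comparison up to 4 of the largest called differences; Slc30a9, Slc39a3 and single called genes of small counts were named after their values were seen. Members and lists were chosen with earlier results of these data known. Alternatives changed the normalization, filter, row choice, samples fitted, moderation, array weights and replicate block, and left out each array. No array pair was identical. Sequences came from RefSeq promoter windows (GRCm38.p6), which held 5 of the 6 genes.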

Additional observations from a re-analysis of the deposited data

How the results depend on the processing

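Of 1728 values of the 6 genes under alternative settings, 1712 kept their side of the threshold, 5 fell short of it and 11 newly passed it. Of the called values 0 changed sign. Differences that were not called could change sign, such as that of Slc30a1 between the genotypes at 15 min, from -0.1 to 0.1. The number of members called for cub against wild type at 2 h was 1 and became 2 with quantile normalization, in a fit of only the groups compared and with array weights, through Mt4; at 24 h it was 1 and ran from 1 to 2 when single arrays were left out, and for the difference between the 24 h changes it was 0, became 1 with array weights and ran from 0 to 1 when single arrays were left out. Where an array of cub at 15 min was left out, the remaining one was taken to vary like the other groups. Counts over all genes moved more: from 1047 to between 322 and 1804 for cub against wild type at 0 h, from 688 to between 29 and 2025 at 15 min, from 880 to between 329 and 1590 at 2 h, from 1133 to between 258 and 1364 at 24 h, from 1590 to between 983 and 2712 for wild type at 2 h against 0 h, from 2381 to between 1716 and 4112 for cub at 2 h, from 7 to between 0 and 389 for wild type at 15 min, from 5 to between 0 and 838 for cub at 15 min, from 26 to between 1 and 173 for the difference between the 2 h changes and from 200 to between 74 and 437 for that at 24 h; the cause was not tested. Replicate numbers did not pair the arrays: over 77 same-number pairs in different groups the deviations from group means had a median correlation of -0.0352 (-0.447 to 0.41), 21 were over 0.1, and 4 of 23 arrays correlated best with their own number. With the replicate block no member's call changed, and the count for cub against wild type at 15 min was 414. Of 48 counts over gene lists under other scalings, 47 stayed within 1.5 times; the other was the zinc transporters at 2 h in wild type, with 1 higher and 1 lower under quantile normalization. Of the 18 genes named as most alike, 6 were also named over group means. Signal over background was not measured here.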
